A study of Mus musculus with 12 samples.

Results

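Hip cartilage of mice without Mapk9 (Mapk9 KO) was compared with hip cartilage of wild-type mice (WT) 4 h post injury. The comparison took the 3 Mapk9 KO injured and the 3 WT injured arrays, 6 of the 12 arrays of the series, and every probe of the normalized table was tested. All mice had the C57BL6 background. The labels give their age as 4 to 6 weeks and the study's methods as 5 to 6 weeks. Injury was made by avulsing the femoral epiphysis of freshly culled mice, after which the tissue was kept in culture for 4 h, so that both injured groups share the injury and the culture. The study's methods describe each replicate as a pool of 6 hips from 3 mice, for control and injured cartilage and without naming a genotype. The sources used here do not state how the Mapk9 allele was made, which exons it removes, or the sex of the mice. The 3 Mapk9 KO control and the 3 WT control arrays, from hips that were snap-frozen without culture, served as a second comparison of the genotypes on separate arrays.

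Mapk9 encodes JNK2, a c-Jun N-terminal kinase. The JNK kinases are mitogen-activated protein kinases that are switched on by the upstream kinases Map2k4 and Map2k7, held together by scaffold proteins and switched off by dual-specificity phosphatases. They phosphorylate Jun and other members of the AP-1 family of transcription factors, which drive matrix protease and cytokine genes. Cutting cartilage activates JNK in chondrocytes, together with the p38, ERK and NF-kB pathways.

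Of the 45281 probes of the array, 17368 to 17885 were detected in WT injured and 17444 to 18464 in Mapk9 KO injured hips, detection being a deposited p-value under 0.05. The cartilage genes Col2a1, Acan, Sox9 and Comp were detected on all 6 arrays. Red cell, neutrophil, bone and endothelial markers were detected too, so the hips held other tissues beside cartilage. Arrays stood apart in 2 ways before any test of single genes. Xist, the RNA that coats the inactive X chromosome of female cells, was bright on all 6 Mapk9 KO arrays and on WT control replicate 1, and dimmer on the other 5 WT arrays. The log2 difference between the probe nearest the start and the probe nearest the end of a transcript, taken as a median over 866 transcripts with probes at least 500 bases apart, was -1.54, -2.04 and -1.72 on WT injured replicates 1 to 3. It was -1.23, -1.70 and -1.39 on Mapk9 KO injured replicates 1 to 3, between 0.318 and 0.338 higher than on the WT array of the same number. The values of the 2 injured groups overlapped when the numbers were ignored (exact permutation test, two-sided p = 0.2, where 3 arrays against 3 cannot give less than 0.1). With the arrays paired by number, all 3 differences were positive, and an exact sign-flip permutation test gave a two-sided p = 0.25, the smallest that 3 pairs allow, so that neither test could reach the threshold of 0.05.

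Few probes differed between the genotypes post injury. A probe was called when its fold change was above 2 and its adjusted p under 0.05 in limma, the p being adjusted by Benjamini-Hochberg across the 21004 probes of the table. By this rule 38 probes were called (0.181% of those tested), 15 of them higher in Mapk9 KO (0.0714%) and 23 lower (0.11%). They belonged to 31 of 14681 genes (0.211%), 12 with a higher and 20 with a lower probe, and Erdr1 had a probe in each direction. In all 38 probes the 3 Mapk9 KO values lay on one side of the 3 WT values. Over all 21004 probes the median log2 difference was -0.04, and in 7.36% of probes the Mapk9 KO values lay wholly above and in 9.47% wholly below the WT values. The lower calls were the more stable set. With the replicate number as a block, so that arrays of the same number are compared, all 38 probes remained called, the lower calls rose to 32 and the higher calls to 156. Leaving out single arrays kept between 18 and 23 of the 23 lower calls and between 5 and 15 of the 15 higher calls, while the number of higher calls ran from 5 without WT injured replicate 2, through 7 without Mapk9 KO injured replicate 1 or 3 or WT injured replicate 3, to 39 without Mapk9 KO injured replicate 2 and 118 without WT injured replicate 1. The latter array also moved the number of lower calls the most, to 36. Lower calls thus outnumbered higher ones in the fit of all 6 arrays without the block, whereas higher calls outnumbered lower ones with the block and without either of the last 2 arrays. Of the 38 calls, 22 held when any 1 of the 6 arrays was left out. Il18, Zc3hav1, Cdk5rap1 and Erdr1 at 110 were lost without any 1 array other than WT injured replicate 1. Fam177a, Thg1l, 9830163H01Rik, IGHV10S3, Zfp39 and Cygb were lost without Mapk9 KO injured replicate 1 or 3 or WT injured replicate 2 or 3, and AU044919 without Mapk9 KO injured replicate 1 or 2 or WT injured replicate 2 or 3. Of the other calls, 2010007H06Rik was lost without Mapk9 KO injured replicate 1 or 3 or WT injured replicate 2, Anxa6 without Mapk9 KO injured replicate 3 or WT injured replicate 2, Sparc without WT injured replicate 2 or 3, Xist at base 1 without WT injured replicate 2, and Mapk9 at 900 without WT injured replicate 3.

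Mapk9 itself was lower in Mapk9 KO at both probes that the normalized table holds. The probe sequences of Mapk9 are shown because the gene is the target of the knockout and the 2 probes read different parts of its transcript. Mapk9 lies on mouse chromosome 11. The probes start at bases 4211 and 900 of the same RefSeq transcript and share no run of more than 6 bases. The whole 50 bases are given for the probe at 900 and the first 30 of 50 bases for the probe at 4211, each 5′ to 3′ and as deposited.
Mapk9 probe at 900: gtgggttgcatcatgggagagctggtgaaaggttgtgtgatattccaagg
Mapk9 probe at 4211: gtcccatgccgatagtcagtacaggtgtga
At 4211 the normalized log2 intensities were 10.30, 10.57 and 10.05 on the WT injured arrays and 8.75, 8.78 and 8.69 on the Mapk9 KO injured arrays. The groups were far apart, with a log2 difference of -1.57 (SE 0.18, limma adjusted p = 0.00485), yet the probe was still detected on all 3 Mapk9 KO arrays. At 900 the values were 6.03, 5.03 and 5.81 in WT and 3.62, 3.42 and 3.75 in Mapk9 KO. This probe was detected on 1 of the 3 WT injured arrays and on none of the Mapk9 KO arrays, so the difference was called (limma adjusted p = 0.00892) with no bound on its fold. That call was lost without WT injured replicate 3, at a log2 difference of -1.94, and after both other normalizations, at -0.85 and -0.45. In control hips it was detected on all 3 WT arrays, at 7.29, 6.23 and 7.09, and on no Mapk9 KO array, at 4.23, 4.09 and 4.28, where it was at least 1.92-fold lower (limma adjusted p = 0.00244). The array carries another 2 Mapk9 probes, outside the normalized table and detected on 0 of 12 arrays. Whether either probe lies in the deleted part of the gene cannot be said from the sources used here.

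The other JNK genes did not pass the test. Mapk8, which encodes JNK1, the closest relative of Mapk9, was read by 3 probes. The brightest gave 8.31, 8.13 and 7.85 in WT injured hips and 8.13, 8.28 and 8.15 in Mapk9 KO injured hips, with overlapping groups. Its log2 difference was 0.09 (SE 0.17, limma adjusted p = 0.858), and the other 2 Mapk8 probes had 0.14 and 0.40 (adjusted p = 0.804 and 0.438). Mapk10, which encodes the JNK of neurons, has no probe in the normalized table.

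**Figure D1:**
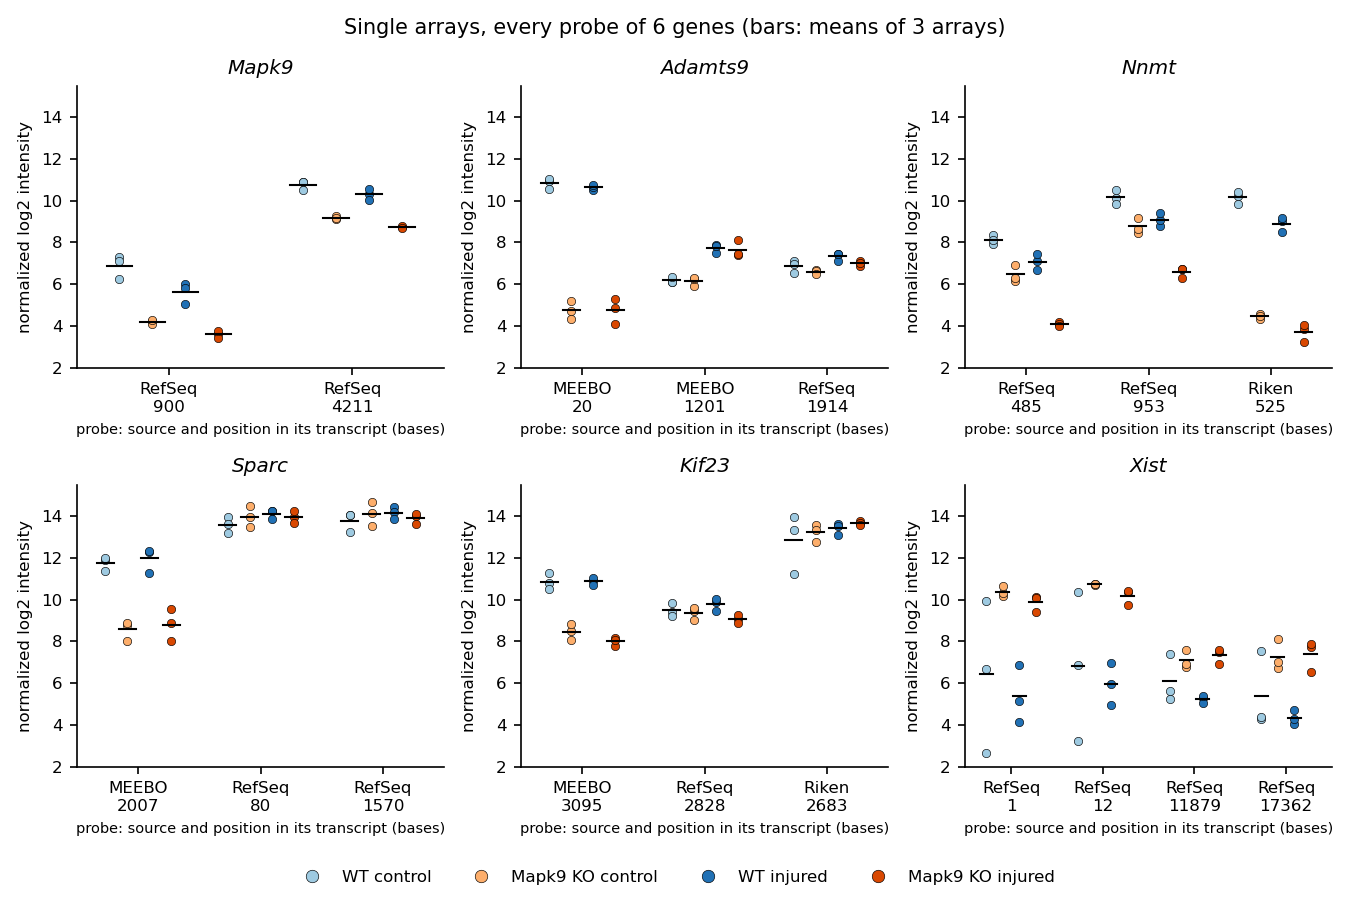
Normalized log2 intensity of every probe of Mapk9, Adamts9, Nnmt, Sparc, Kif23 and Xist on all 12 arrays, by group, with the source and the starting base of each probe on the horizontal axis and bars at the means of 3 arrays. All 2 Mapk9 and 3 Nnmt probes were lower in Mapk9 KO, whereas in Adamts9, Sparc and Kif23 1 of 3 probes was called. Xist was high on all Mapk9 KO arrays and on 1 of the 3 WT control arrays.

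Nnmt fell at all 3 of its probes. Nnmt encodes nicotinamide N-methyltransferase, which methylates nicotinamide with S-adenosylmethionine and so draws on both NAD precursors and methyl donors. It lies on chromosome 9. Its probes are shown because their agreement across the gene sets it apart from most other calls. They share no run of more than 5 bases, and the first 30 of 50 bases of each are given.
Nnmt probe at 485: ctgaagaaggaaccaggagcctttgactgg
Nnmt probe at 525 of a Riken clone: ctgttcgagatgctgtggaagaggccggtt
Nnmt probe at 953: ctccctagtggggcgaaagccaggcagatc
At 953 the values were 8.79, 9.07 and 9.40 in WT injured hips and 6.74, 6.72 and 6.28 in Mapk9 KO injured hips, a log2 difference of -2.51 (SE 0.21, limma adjusted p = 0.000709). At 485 they were 7.09, 6.68 and 7.47 against 4.17, 4.07 and 4.01, and at the Riken probe 8.51, 9.01 and 9.17 against 3.23, 3.88 and 4.05. Both of these probes were undetected on every Mapk9 KO injured array, so that Nnmt was at least 2.33-fold lower at 485 (adjusted p = 0.000151) and at least 8.20-fold lower at the Riken probe (adjusted p = 1.69e-05). In control hips the Riken probe was again undetected on every Mapk9 KO array, and Nnmt was at least 18.9-fold lower there (adjusted p = 1.2e-06). The probes at 485 and 953 were detected on all 3 Mapk9 KO control arrays. At 485 the control log2 difference was -1.66, called without the block (adjusted p = 0.0381) and not with it (0.105), and at 953 it was -1.39 (adjusted p = 0.137) and not called.

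Most other falls were seen by a single probe. Of the 20 genes with a lower call, 11 had more than 1 probe in the table. All probes of the gene were called lower for 2 of these, Mapk9 and Nnmt, while for the other 9 only 1 probe was. Sparc, Adamts9 and Kif23 show this most clearly. Sparc encodes osteonectin, a collagen-binding protein of bone and cartilage matrix, Adamts9 a secreted metalloproteinase that cuts aggrecan and versican, and Kif23 a kinesin of the dividing cell's midbody. The probe sequences of Sparc and Adamts9 are given, 30 of 50 bases each, because only 1 of the 3 probes of each gene was called.
Sparc probe at 80, not called: tcccagcatcatgagggcctggatcttctt
Sparc probe at 1570, not called: acatgacagactcccagcagcccgggacct
Sparc probe at 2007, called: ccatgcaaactctcacagcaatgtgaagag
Adamts9 probe at 1914, not called: cagctgctggcttttccagtttccagaaaa
Adamts9 probe at 1201 of a second record, not called: ctctcattcaagctcatcctcacatctgat
Adamts9 probe at 20 of a sequence with no accession, called: gattaggaaaaccctgacagtattccccaa
The Sparc probe at 2007 read 11.30, 12.31 and 12.33 in WT injured hips and 8.003, 8.87 and 9.54 in Mapk9 KO injured hips, a log2 difference of -3.18 (SE 0.38, limma adjusted p = 0.00787). Its probe at 80 read 14.27, 14.23 and 13.88 against 13.97, 14.25 and 13.69, and its probe at 1570 read 14.45, 14.22 and 13.87 against 14.03, 14.10 and 13.61. At those 2 probes the groups overlapped, with log2 differences of -0.16 (adjusted p = 0.776) and -0.26 (adjusted p = 0.629). The called Adamts9 probe read 10.53, 10.67 and 10.76 against 4.09, 5.31 and 4.87, undetected on every Mapk9 KO array and thus at least 27.7-fold lower (adjusted p = 1.69e-05). The other Adamts9 probes read between 7.13 and 7.87 in WT and between 6.89 and 8.12 in Mapk9 KO, with log2 differences of -0.35 and -0.07 (adjusted p = 0.434 and 0.923). For Kif23 the called probe read 10.92, 11.04 and 10.73 against 7.79, 8.18 and 8.05, a log2 difference of -2.89 (SE 0.17, adjusted p = 5.34e-05), while its other probes had -0.73 (adjusted p = 0.229) and 0.25 (adjusted p = 0.597). Why the probes of a gene differ was not tested.

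The remaining single-probe falls had the same form. Alg9, a mannosyltransferase of N-glycan assembly, read 6.62, 6.93 and 6.63 in WT and was undetected in Mapk9 KO at 3.78, 4.16 and 3.75, at least 1.83-fold lower (limma adjusted p = 8.08e-05), and its other probes had log2 differences of 0.03 and -0.17. Rnf41, a ubiquitin ligase, read 6.03, 6.26 and 6.16 and was undetected at 3.21, 4.18 and 3.89, at least 1.22-fold lower (adjusted p = 0.00224). Its other 2 probes, which start 1 base apart and so read the same stretch, both had 0.48. Fxr2, an RNA-binding protein related to FMRP and listed in the table as Fxr2h, had a log2 difference of -1.94 (SE 0.19, adjusted p = 0.00214) and -0.30 at its other probe. Ttc19, a mitochondrial protein of respiratory complex III listed under 2010204O13Rik, was undetected in Mapk9 KO and at least 2.36-fold lower (adjusted p = 0.00379), while its other probes had 0.13 and 0.29. Anxa6, a calcium-dependent membrane-binding annexin found in matrix vesicles, had -1.31 (SE 0.16, adjusted p = 0.00787) at its Riken probe and 0.00 at its RefSeq probe. The Riken probe was detected on all 3 WT and on 1 Mapk9 KO injured array. At that RefSeq probe Anxa6 read 10.48, 10.70 and 10.49 in WT and 10.49, 10.62 and 10.56 in Mapk9 KO.

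Genes with 1 probe in the table, together with Erdr1, which has 2, made up the rest of the falls. Cygb, cytoglobin, a haem protein of fibroblast-like cells, read 7.52, 7.61 and 7.56 in WT and 6.34, 6.69 and 6.23 in Mapk9 KO, a log2 difference of -1.15 (SE 0.17, limma adjusted p = 0.0366). It differed by 0.09 in control hips (adjusted p = 0.983) and is the only one of the 23 lower probes whose sign turned there. The difference of these differences was -1.23, with a limma adjusted p = 0.282 for the interaction. Zfp39, a zinc finger gene, had -1.28 (adjusted p = 0.0301) and Nxpe2, listed as 4432416J03Rik, had -1.53 (adjusted p = 0.00715). The unnamed transcripts were LOC380706, at least 4.56-fold lower (adjusted p = 1.69e-05), 4933427D14Rik, at least 3.43-fold (adjusted p = 0.000781), B930010D08Rik, at least 2.89-fold (adjusted p = 0.00094), and A630064P09Rik, at least 2.69-fold (adjusted p = 0.00229). Nudel-pending had a log2 difference of -1.86 (adjusted p = 0.00214) and 2010007H06Rik one of -1.44 (adjusted p = 0.0301). Erdr1, a gene of the region that the X and Y chromosomes share, had -4.25 (SE 0.23, adjusted p = 2.45e-05) at its probe at 581 and 1.07 (SE 0.16, adjusted p = 0.0312) at its probe at 110. At 581 Erdr1 read 12.03, 12.40 and 11.95 in WT and 8.07, 7.42 and 8.15 in Mapk9 KO, and at 110 it read 9.39, 9.32 and 9.21 against 10.28, 10.47 and 10.37. No direction for the gene can be read from its 2 probes.

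Xist and a transcript near Mapk9 led the rises. All 4 Xist probes were called, 2 of them reading nearly the same stretch at bases 1 and 12. At base 12 Xist read 4.97, 5.95 and 6.96 in WT injured hips and 10.35, 9.75 and 10.40 in Mapk9 KO injured hips, a log2 difference of 4.21 (SE 0.42, limma adjusted p = 0.00214). At the probes at 11879 and 17362 it was undetected in every WT injured array and was at least 2.85-fold and at least 2.93-fold higher in Mapk9 KO (adjusted p = 0.00214 and 0.00458). The Y-linked genes Ddx3y and Eif2s3y were detected in both groups, with log2 differences of -0.60 (adjusted p = 0.358) and -0.38 (adjusted p = 0.491), and so was Uty, with 0.00 (adjusted p = 0.996). In the control hips Xist at base 12 read 10.37, 3.24 and 6.89 in WT and 10.72, 10.75 and 10.77 in Mapk9 KO, so that WT control replicate 1 lay with the Mapk9 KO arrays and no Xist probe was called there (adjusted p from 0.588 to 0.788). The mix of sexes in the pools and the genotype cannot be told apart for Xist, and its part in the other differences was not tested.

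4930597A21Rik, a transcript of unknown function on chromosome 11, was undetected in WT at 5.13, 5.44 and 5.84 and read 9.50, 10.11 and 9.51 in Mapk9 KO, at least 14.5-fold higher (limma adjusted p = 2.87e-05). Thg1l, which adds the extra guanosine to histidine tRNA, lies 2 genes further along the chromosome and read 6.09, 5.24 and 5.85 against 7.68, 7.13 and 7.40, a log2 difference of 1.68 (SE 0.24, adjusted p = 0.0301). Its value of 5.24 on WT injured replicate 2 lay below the lowest detected signal of that array, 5.84. Il18, the interleukin-18 cytokine that the inflammasome matures, read 6.33, 6.25 and 6.20 in WT and 7.19, 7.26 and 7.40 in Mapk9 KO. Its log2 difference was 1.02 (SE 0.15, adjusted p = 0.0368) at this probe and 0.10 (adjusted p = 0.918) at its other probe. Zc3hav1, the antiviral zinc finger protein ZAP listed as D6Bwg1452e, was undetected in WT and at least 1.57-fold higher in Mapk9 KO (adjusted p = 0.0494), with 0.25 and -0.12 at its other probes. Fam177a, listed as 1700047I17Rik, had 1.21 (SE 0.18, adjusted p = 0.0345) and 0.73 (adjusted p = 0.354) at its 2 probes. The other rises were LOC384415 with 1.59 (adjusted p = 0.00458), AU044919 with 1.97 (adjusted p = 0.0494), and 9830163H01Rik, undetected in WT and at least 1.94-fold higher (adjusted p = 0.0359). A probe of Cdk5rap1 and an immunoglobulin heavy variable probe, IGHV10S3, were called as well, but were detected on no WT and on 1 Mapk9 KO injured array.

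The genotype differences of injured hips were mostly present in control hips. Of the 23 lower probes, 22 had the same sign in control hips, the groups did not overlap in 22 (6.57% of all probes were so placed), and 16 were called there too. Of the 15 higher probes, 14 had the same sign, 8 did not overlap (against 4.26% of all probes), and 2 were called, 4930597A21Rik and 9830163H01Rik. In control hips 25 probes were called in all (0.119%), 6 higher (0.0286%) and 19 lower (0.0905%). The 18 probes called the same way in both comparisons were 47.4% of the calls of injured hips and 72% of those of control hips. With the replicate number as a block, 5 probes were called higher (0.0238%) and 14 lower (0.0667%) in control hips, and 2 of the 15 higher and 14 of the 23 lower probes of injured hips were called there. Mapk9 at 4211, with a log2 difference of -1.57 in control hips, was among the calls lost (limma adjusted p = 0.0151 without and 0.061 with the block). The control counts rest on WT control replicate 3, without which 358 probes were higher and 54 lower.

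**Figure D2:**
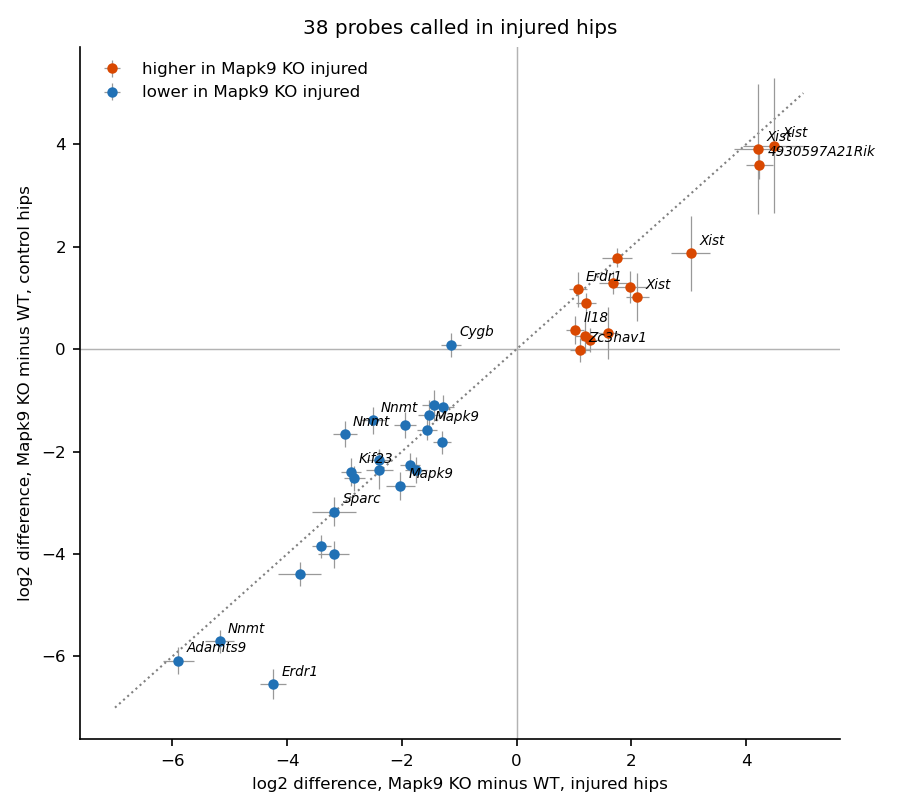
Log2 difference of Mapk9 KO minus WT in injured hips (horizontal) and in control hips (vertical) for the 38 probes called in injured hips, with standard errors and a dotted line of equal differences. Of the 15 higher probes 14 and of the 23 lower probes 22 had the same sign in control hips. Cygb, at -1.15 and 0.09, is the lower probe that does not.

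The called genes were unevenly spread over the chromosomes. Of the 31 genes, 22 could be placed by name in the RefSeq gene table, together with 11861 genes of the normalized table (0.185% called). Chromosome 11, which carries Mapk9, held 10 of them among 996 genes (1% called), and chromosome 9 held 5 among 675 (0.741%). Chromosomes 2, 10 and 12 held 1 each, chromosomes 6 and X 2 each, and the other chromosomes none. In gene order on chromosome 11, 4930597A21Rik and Thg1l lay 28 and 26 genes before Mapk9. Anxa6, Sparc and Zfp39 lay 53, 56 and 73 genes after it, Ttc19, Fxr2 and 4933427D14Rik 125, 178 and 234 genes after it, and Cygb 742 genes after it. Of the 100 genes within 50 places of Mapk9, 2 were called, both higher (2%), and their median log2 difference was -0.04. On chromosome 9, Nxpe2 lay 2 genes before Nnmt, Il18 7 and Alg9 15 genes after it, and Kif23 89 genes after it. On the chromosomes other than 9 and 11, 7 of 10190 genes were called (0.0687%). Most genes between the called ones were not called, and the median log2 difference over the rest of chromosome 11 was -0.13. The origin of this spread was not tested, and no coordinates are given because the deposited table names no genome build.

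**Figure D3:**
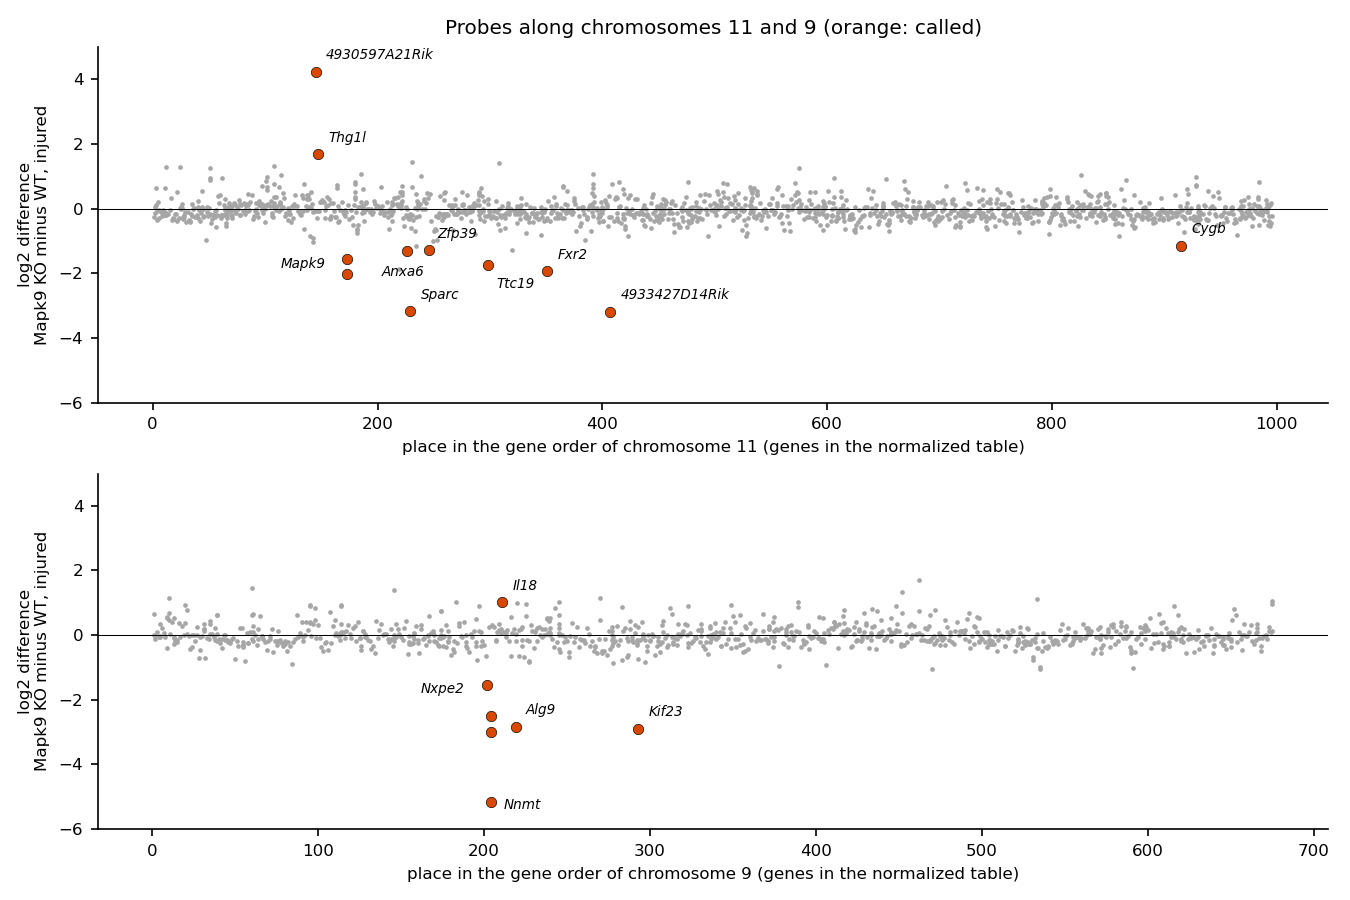
Log2 difference of Mapk9 KO minus WT in injured hips for every probe on chromosome 11 (top) and chromosome 9 (bottom), against the place of its gene in the gene order of the chromosome. Called probes are orange and named. The called genes of chromosome 11 other than Cygb lie between places 145 and 407 of 996, and those of chromosome 9 between places 202 and 293 of 675.

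With the replicate number as a block, 156 probes were called higher (0.743%) and 32 lower (0.152%). They include the 15 higher and 23 lower probes called without it. Of the 156 probes, 107 had another probe of the same gene that was not called, and 84 of these 107 were dimmer than it. The median log2 difference was 1.25 over the 156 probes, 0.12 over the 186 uncalled probes of the same genes, and -0.10 over the 156 probes in control hips. The 156 probes were chosen for a fold above 2 on these injured arrays and the 186 for not being called. The gap between their medians in injured hips therefore follows in part from the choice. Among the 866 transcripts with probes far apart, 30 of the probes nearest the start and 2 of those nearest the end were called higher, and the place in the transcript of the other higher probes was not examined. The median genotype difference was 0.21 at the probes nearest the start and -0.09 at those nearest the end. These medians come from the same transcripts and arrays as the end measure and are not separate from it. With the end measure as a covariate in place of the block, 2 probes were called higher and 14 lower. What gives rise to this difference between transcript ends was not tested.

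**Figure D4:**
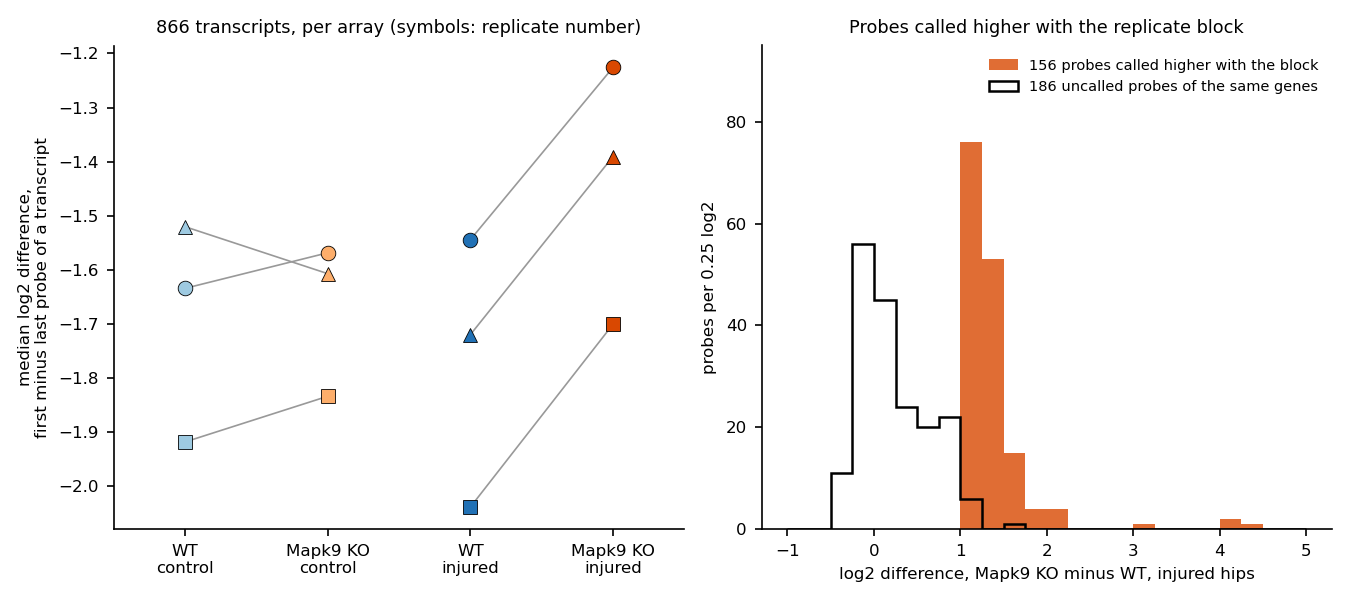
Left, the median log2 difference between the probes nearest the start and the end of 866 transcripts on each array, with lines joining arrays of the same replicate number; all 3 lines rise from WT injured to Mapk9 KO injured. Right, log2 differences of Mapk9 KO minus WT for the 156 probes called higher with the block, whose median was 1.25, and for the 186 uncalled probes of the same genes, whose median was 0.12. Both sets were chosen by calls on these same arrays.

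Beside Mapk9 and Adamts9, among the genes of the pathway lists below, Hif1a, Csf2 and Cxcl9 were called with the block by the probe that represents them. Hif1a encodes the oxygen-regulated subunit of hypoxia-inducible factor 1. It has 1 probe, which read 8.69, 7.54 and 8.02 in WT injured hips and 9.41, 8.92 and 9.43 in Mapk9 KO injured hips. The groups did not overlap, and the log2 difference was 1.17 (SE 0.28), with a limma adjusted p = 0.21 without and 0.0494 with the block. Csf2, which encodes the cytokine GM-CSF and lies within 50 places of Mapk9 on chromosome 11, read 5.37, 7.13 and 6.09 against 4.18, 4.48 and 4.30. It was detected on 2 WT and on no Mapk9 KO injured array and was at least 1.26-fold lower, with an adjusted p = 0.139 without and 0.0476 with the block. Cxcl9, an interferon-induced chemokine, read 6.18, 6.85 and 6.57 against 5.13, 6.01 and 5.29, a log2 difference of -1.06 (adjusted p = 0.21 without and 0.0376 with the block). It was detected on all 3 WT and on 1 Mapk9 KO injured array, so that part of this difference lies below detection. Pkm, pyruvate kinase, shows how far probes of a gene parted: its probe at 1883 had -0.77 and its probe at 1089 had 0.87, each with an adjusted p under 0.05 only with the block (0.0494 and 0.0376).

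The 15 lists below run from the JNK pathway and AP-1 factors to interferon, cartilage, metabolic, chaperone and cell cycle genes. They hold 280 measured genes, of which 0 were called higher and 2 lower, Mapk9 and Adamts9, by limma without the block. These were 0.714% of the list genes, against 0.211% of all genes with a call in either direction, and Mapk9 is the deleted gene. With the block 10 were higher (3.57%, against 0.981% of all genes) and 4 lower (1.43%, against 0.198%). In each list below a gene is represented by its brightest probe for medians and signs, beside a median log2 difference of -0.06 over the brightest probes of all 14681 genes, of which 60.2% were below 0. Counts of list genes wholly below the WT values also use the brightest probe, whereas the share printed beside them is over all probes. The lists are read as counts, and none was tested as a set.

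Of 32 JNK kinases, activators, scaffolds and phosphatases, 26 were measured, and Mapk9 was the only one called, with or without the block. The list median was -0.10, with 11 genes above and 15 below 0. Map3k2, an upstream kinase, had the smallest p after Mapk9: it was undetected in WT at 5.54, 5.54 and 5.36 and read 6.18, 6.22 and 6.15 in Mapk9 KO, at least 1.27-fold higher (limma adjusted p = 0.168). Dusp8, a phosphatase of JNK, had -0.51 (adjusted p = 0.261), and -0.28 at its other probe. The direct activators Map2k4 and Map2k7 had 0.08 and -0.28, and their other probes 0.18 for Map2k4 and -0.02 and -0.29 for Map2k7, the last undetected on all 6 arrays. Of 14 measured members of the other MAP kinase pathways none was called, the p38α gene Mapk14 had -0.31, and Map2k5, the activator of ERK5, had the smallest p at -0.61 (adjusted p = 0.23).

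Jun, the substrate that gives the kinases their name, read 10.98, 11.02 and 10.75 in WT injured hips and 10.70, 10.74 and 10.57 in Mapk9 KO injured hips. The groups did not overlap, but the log2 difference of -0.25 (SE 0.16) had a limma adjusted p = 0.557. Fos, its AP-1 partner, had 0.41 (adjusted p = 0.443) with overlapping groups, and Maf had -0.27 (adjusted p = 0.539), with -0.50 and -0.20 at 2 other probes that were undetected on all 6 arrays. Of 17 measured AP-1 and other JNK target factors none was called, also with the block, and the values ran from -0.27 to 0.41. Of 11 measured immediate early genes none was called. Myc had the smallest p there, with 5.94, 5.84 and 5.97 in WT and 6.89, 6.26 and 6.79 in Mapk9 KO, a log2 difference of 0.73 (adjusted p = 0.226). Egr1, the zinc finger factor induced by growth factors, had 0.03.

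Matrix proteases and their inhibitors had the lowest median of the 15 lists, -0.37, with 14 of 19 genes below 0 and 7 wholly below the WT values (9.47% of all probes). The called member was Adamts9, whose other probes were not called. Without it the median of the other 18 genes was -0.34, 13 were below 0 and 6 wholly below, and their mean level was 9.76 to 9.98 in WT and 9.62 to 9.68 in Mapk9 KO injured hips. Mmp13, the collagenase that cuts type II collagen, read 14.36, 14.49 and 14.08 against 14.02, 14.16 and 13.54, a log2 difference of -0.41 (limma adjusted p = 0.45), while its other 2 probes had 0.55 and 0.56 (adjusted p = 0.373 and 0.382). The aggrecanase genes Adamts4 and Adamts5 had -0.24 and -0.39 (adjusted p = 0.555 and 0.396). Adamts2, which trims procollagen, had -0.64, -0.66 and -0.76 at its 3 probes (adjusted p = 0.229, 0.287 and 0.192). Mmp11 and Mmp23 had -0.64 (adjusted p = 0.216) and -0.73 (adjusted p = 0.28). Against these, Mmp3, stromelysin-1, had 0.67 (adjusted p = 0.268), with values of 11.21, 11.72 and 10.90 against 11.86, 11.96 and 12.03, and its other probes had 0.47 and 1.16 (adjusted p = 0.566 and 0.133).

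Of 26 measured genes of cytokines, chemokines and prostaglandin synthesis, none was called without the block, and Csf2 and Cxcl9 were lower with it. The list median was -0.05. The interleukin genes Il1b, Il6 and Il11 had -0.09, 0.56 and 0.26 (limma adjusted p = 0.891, 0.336 and 0.622), of which Il6 was detected on no WT and 2 Mapk9 KO injured arrays, and the chemokine genes Cxcl1, Cxcl2 and Ccl2 had -0.07, -0.11 and -0.06, with -0.34 at the other Cxcl2 probe. Of 17 measured NF-kB subunits and inhibitors none was called, with values from -0.22 to 0.39. Nfkbia, the inhibitor that NF-kB itself induces, had -0.21 (adjusted p = 0.616) and -0.41 at its other probe, and Chuk, the kinase IKKα, had 0.39 (adjusted p = 0.402). None of 15 apoptosis regulators was called: Bax, which opens the mitochondrial outer membrane, had -0.65 (adjusted p = 0.261), Bcl2l1 0.56 (adjusted p = 0.325) and Bcl2 -0.36 (adjusted p = 0.378). The other probes of Bcl2l1 had 0.61 and 0.29, and those of Bcl2 had 0.36, 0.12 and -0.08, so that its probes differed in sign.

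Interferon-response genes had the second lowest median, -0.32, with 18 of 22 below 0 (against 60.2% of all genes) and 6 wholly below the WT values (against 9.47% of all probes). None was called, with or without the block. Isg15, a ubiquitin-like protein, read 8.98, 9.48 and 9.48 in WT and 8.39, 8.89 and 8.71 in Mapk9 KO, a log2 difference of -0.65 (SE 0.20, limma adjusted p = 0.261). Usp18, which removes Isg15 from proteins, had -0.60 (adjusted p = 0.245), and -0.25 and 0.47 at its other probes, the latter undetected on all 6 arrays. Ifit3 had -0.48 (adjusted p = 0.305), and -0.59 and -0.10 at 2 other probes that were undetected on all 6 arrays.

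Of 22 measured chondrocyte identity and matrix genes, none was called without the block. The type II collagen gene Col2a1 had -0.20, aggrecan, Acan, 0.10, the transcription factor gene Sox9 0.00 and lubricin, Prg4, -0.25, all with a limma adjusted p of at least 0.618. Their other probes had -0.28 and -0.28 for Col2a1, -0.03 for Acan, 0.35 for Sox9 and -0.12 for Prg4. With the block a probe each of Col11a1, Col9a1 and Sox5 was higher, with 1.33, 1.03 and 1.38, while the brightest probes of these genes had 0.34, 0.31 and 0.06. Their other probes had 0.23 for Col11a1, 0.97 and 0.18 for Col9a1, and 0.28, 0.05 and -0.01 for Sox5. The Col9a1 probe with 0.97 starts at 874, beside the called one at 873. Its limma adjusted p was 0.0466 with the block, but its fold was under 2. Of 13 measured cartilage injury-response factors none was called, and their mean level was 9.28 to 9.39 in WT and 9.40 to 9.63 in Mapk9 KO injured hips. Fgf2, the growth factor released by cut cartilage, read 6.27, 6.11 and 6.43 in WT and 7.85, 7.02 and 7.31 in Mapk9 KO. The groups did not overlap, with a log2 difference of 1.13 (SE 0.22), an adjusted p = 0.139 and, with the block, 0.0523. Has2, a hyaluronan synthase, had 0.48 (adjusted p = 0.387) and Ccn1 0.57 (adjusted p = 0.333), its other probes having -0.08 and -0.04.

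In metabolism, 24 glycolysis and hypoxia-inducible genes gave no call without the block and 4 rises with it, Hif1a and single probes of Gpi1, Pfkp and Pgk1. The mean level of the 24 genes was 10.82 to 10.92 in WT and 10.93 to 11.05 in Mapk9 KO injured hips. The brightest probes of Gpi1, Pfkp and Pgk1 had -0.14, 0.58 and -0.02, and the called Pgk1 probe was detected on no WT and 1 Mapk9 KO injured array. The third Gpi1 probe had -0.09, and Ldha, lactate dehydrogenase A, and the glucose transporter gene Slc2a1 had 0.03 and 0.08. Of 23 arginine, proline and polyamine enzymes none was called without the block, and with it a probe of P4ha1, a collagen prolyl hydroxylase, was higher at 1.16, where its brightest probe had -0.07. Ckb, brain creatine kinase, had -0.72 (limma adjusted p = 0.219). Of 15 heat shock chaperones none was called without the block, and a probe each of Hspa8 and Hspd1 was higher with it, at 1.40 and 1.41, where their brightest probes had -0.17 and -0.07. None of 17 cell cycle genes was called, and the values ran from -0.36 to 0.28.

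**Figure D5:**
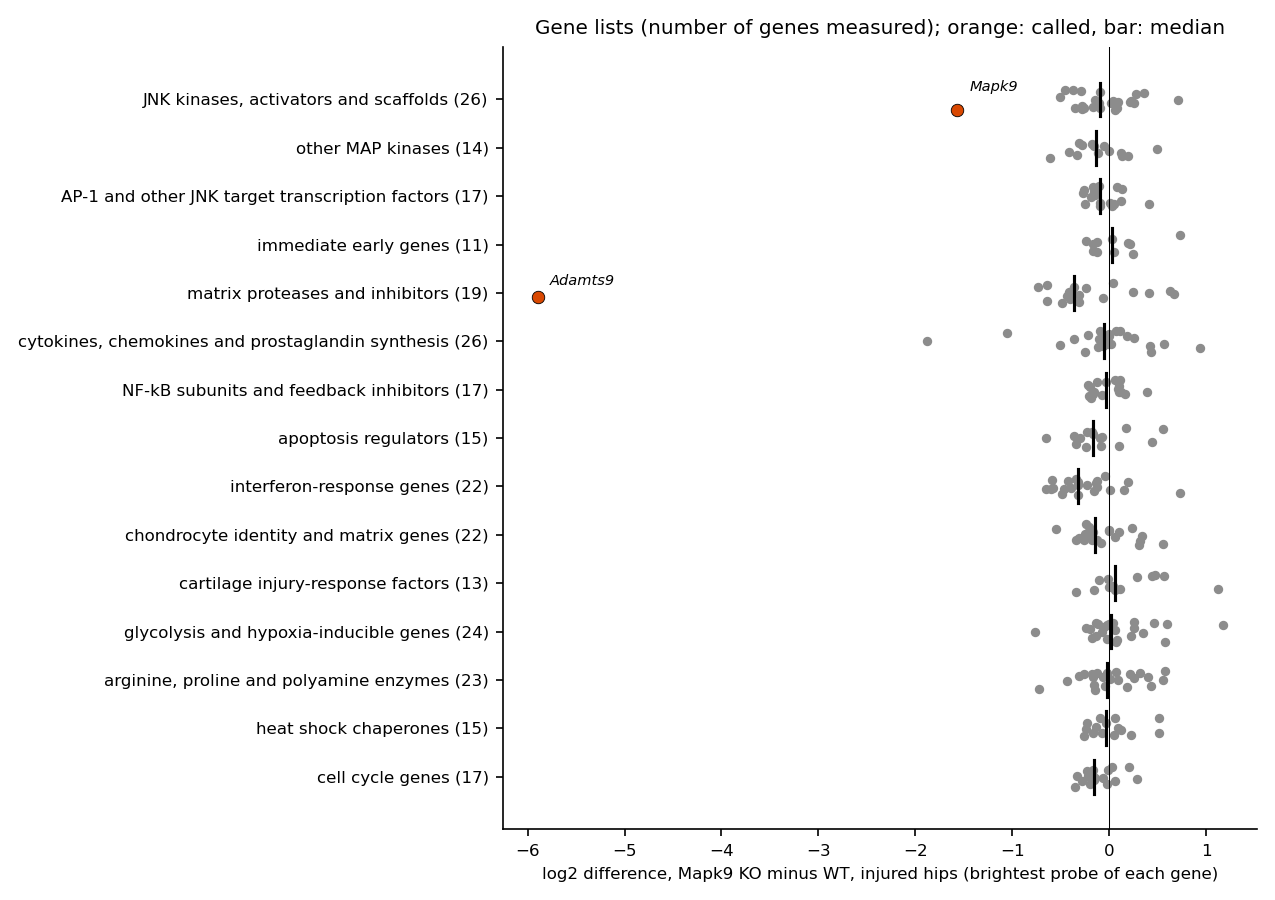
Log2 difference of Mapk9 KO minus WT in injured hips for the brightest probe of each measured gene of the 15 pathway lists, with the number of genes measured, the list median as a bar and called genes in orange. Mapk9 at -1.57 and Adamts9 stand outside. The Adamts9 probe was undetected in Mapk9 KO, at least 27.7-fold lower, and is drawn at its fitted value of -5.90, and the list medians lie between -0.37 and 0.06.

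Of 127 marker genes of other cell types, measured in 10 lists, 0 were called by limma without the block (against 0.211% of all genes), and 35 (27.6%) had a probe with an unadjusted p under 0.05, against 16% of all genes. With the block 2 had a probe called higher (1.57%, against 0.981% of all genes), Fech at 1.30, with 0.94 and -0.01 at its other probes, and Gsn at 1.21, with 0.96 at its other probe, and 1 was lower (0.787%, against 0.198%), Cfd at -1.63. The called Fech probe was detected on 1 WT and on all 3 Mapk9 KO injured arrays. Of 4 sex-linked genes measured Xist was called, and of 5 genes known to vary between mouse strains and substrains, with a median log2 difference of -0.18, none was called with or without the block. The mean level of 21 skeletal muscle genes spread widely within both groups, from 7.71 to 9.48 on the WT and from 7.98 to 9.09 on the Mapk9 KO injured arrays, with a median log2 difference of -0.09. Beside the sex-linked list, the groups did not overlap in 4 lists. The mean of 11 lymphoid genes was 9.61 to 9.76 in WT and 9.18 to 9.42 in Mapk9 KO, that of 11 osteoblast genes 10.87 to 11.09 and 10.60 to 10.84, that of 7 osteoclast genes 7.24 to 7.92 and 6.87 to 7.17, and that of 14 endothelial genes 9.96 to 10.05 and 9.53 to 9.91. In each of these lists Mapk9 KO was the lower group, and 10 of 11, 9 of 11, 6 of 7 and 11 of 14 genes were below 0, against 60.2% of all genes. With arrays paired by replicate number, Mapk9 KO was lower in every pair in these lists. The same held for the macrophage, neutrophil, fibroblast and adipocyte lists, whose groups overlapped, but not for the skeletal muscle and erythroid lists. The osteoclast genes include Ctsk, cathepsin K, with -0.65 (limma adjusted p = 0.267) and Acp5, the tartrate-resistant phosphatase, with -0.91 (adjusted p = 0.288). In bulk tissue fewer cells of a type and less RNA per cell cannot be told apart, and the part of these shifts in the medians of the protease and interferon lists was not tested.

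No gene passed a test of the difference between the genotype effects of injured and control hips without the block. By limma on all 12 arrays the interaction had 0 probes with an adjusted p under 0.05 and 2088 with an unadjusted p under 0.05. With the replicate block 112 probes passed (0.533%), 102 with a more positive genotype effect in injured hips and 10 with a more negative one, and 1 of these was among the 38 probes called, Erdr1 at 581. Without WT control replicate 3 and with no block, 242 passed (1.15%), 25 with a more positive and 217 with a more negative effect, so that the balance of directions was the opposite of that with the block. Clcf1, a neurotrophic cytokine of the interleukin-6 family, read 6.32, 5.30 and 5.06 in WT injured and 7.41, 5.98 and 6.75 in Mapk9 KO injured hips, and was undetected in the control hips of both genotypes. Tnnt1, the troponin T of slow muscle, had a log2 difference of -0.50 in injured and 2.36 in control hips (adjusted p = 0.362 and 0.0861).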

How the data were processed

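Total RNA was hybridised to Illumina mouse BeadChips, 1 array per replicate. The authors deposited for each array the raw intensity of 45281 probes with a detection p-value, which is set against negative control probes in steps of 1 in 936. The authors also deposited a table of normalized log2 intensities of 21004 of these probes, background-corrected and transformed with the vsn package. The other probes were each detected on at most 2 arrays and were not tested. Groups and replicate numbers came from the sample titles.

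The log2 values were used as deposited and tested with limma 3.58.1 in R 4.3.3 (lmFit and eBayes) on the 6 injured arrays, with no block, with Benjamini-Hochberg adjustment over all probes and the study's thresholds of a fold above 2 and an adjusted p under 0.05. The number of arrays limits the precision, and p-values measure the spread between these pools. A probe undetected on all 3 arrays of a group gave only a bound, written as "at least", against the lowest detected signal of each array. Arrays of the same replicate number were alike. Deviations from group means correlated at 0.153 to 0.390 in the 18 pairs of arrays with the same number and at -0.289 to 0.0825 in the 36 other pairs. Such deviations cancel out within a group of 3 arrays, so the low values of the other pairs are in part forced. The main test has no block, and blocked values are given where they change a call. The script was tested on simulated data.

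Symbols were updated through the RefSeq gene table of GRCm38.p6 by accession (14489 probes), symbol (1634), older symbol (2002) or gene ID (9), and 2870 probes kept the name of the deposited table. Gene order came from the same table. Probe sequences were copied from the deposited tables. Named genes were Mapk9 and Mapk8, up to 12 rises and 12 falls with the smallest adjusted p detected on all 3 arrays of the higher group, up to 3 members per gene list, called neighbours of Mapk9 and up to 5 genes with the smallest interaction p. The other called genes and well-known members of the lists were named after their values were seen. A few genes are not reported here. The comparison and the gene lists were chosen with earlier results of these data known. Alternatives were other background corrections and normalizations, centring, a detection filter, all 12 arrays, blocks, thresholds, the methods' t-test, 1 probe per gene and single arrays left out. The end measure as a covariate and the control arrays left out in turn were chosen after seeing the data.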

Additional observations from a re-analysis of the deposited data

Results flagged for a closer look

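By limma, 5 named probes, each detected on at least 1 array, passed a test of a difference between the genotype effects of injured and control hips, limma's interaction test on 12 arrays with the replicate number as a block (two-sided adjusted p in each case under 0.05). Without the block none passed, with an adjusted p of 0.277 for Hif1a and 0.267 for the other 4. The values are differences of log2 differences, injured minus control. Erdr1 at base 581 had 2.29 (adjusted p = 0.0368 with the block), as its fall was smaller in injured hips, and the probe was undetected on all 3 Mapk9 KO control arrays, so that its control fall is a bound, at least 40.1-fold. Hif1a had 1.79 (adjusted p = 0.0287), with 7.88, 7.07 and 7.82 in WT control and 7.04, 6.84 and 7.03 in Mapk9 KO control hips beside the injured values given above. Clcf1 had 2.85 (adjusted p = 0.0368). It read 4.92, 4.80 and 5.01 in WT control and 2.93, 3.59 and 3.11 in Mapk9 KO control hips, undetected on all 6, so that its control difference of -1.70 has no level behind it, and its other probe had 1.44. Rgs11, a regulator of G-protein signalling, had 1.60 (adjusted p = 0.0259), with 6.43, 6.52 and 6.02 in WT injured and 6.93, 6.40 and 6.57 in Mapk9 KO injured hips, against 6.13, 5.97 and 5.90 in WT control and an undetected 4.94, 4.72 and 4.49 in Mapk9 KO control hips, whose values are not levels. Tnnt1 had -2.86 (adjusted p = 0.0447). Its Mapk9 KO control values, 11.003, 11.21 and 10.83, lay above the other 9 arrays, and the mean level of 21 skeletal muscle genes was 12.15 to 12.38 in Mapk9 KO control and 9.98 to 11.99 in WT control hips, with a list median log2 difference of 1.43. Its part in the Tnnt1 value was not tested.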

How the results depend on the processing

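None of the 38 called probes turned its direction in injured hips under the alternatives that gave it a value, and the directions of uncalled probes were not followed. The balance of higher and lower calls did turn. Higher calls outnumbered lower ones in injured hips with the replicate block, at an unadjusted p, by the methods' t-test at its unadjusted p, without Mapk9 KO injured replicate 2 (39 and 25) and without WT injured replicate 1 (118 and 36), and in control hips without WT control replicate 3 (358 and 54). The interaction calls were 102 more positive and 10 more negative with the replicate block and 25 and 217 without WT control replicate 3. The 15 higher and 23 lower probes of injured hips became 10 and 21 after normexp correction with quantile normalization, 7 and 15 after quantile normalization without background correction, and 156 and 32 with the replicate block, which also called 10 list genes higher and 4 lower and 112 probes for the interaction. With a fold above 2 and an unadjusted p they became 261 and 40, with 13 list genes higher and 4 lower and 5 neighbours of Mapk9. The methods' t-test gave 106 and 34 probes at the fold and its unadjusted p and 0 and 0 after Benjamini-Hochberg adjustment, with 0 list genes lower and 0 neighbours, and Mapk9 at -1.57 and -2.03 was not called. With 1 probe per gene there were 12 and 13, and with the end measure as a covariate, chosen after seeing the data, 2 and 14, where Mapk9 at base 4211 had -1.44 and was not called. Neighbours of Mapk9 called were 1 instead of 2 with that covariate, with a block on the number in the sample code and without background correction, and the last setting called 1 list gene higher. Mapk9 at base 900 had -0.85 and -0.45 after the 2 other normalizations. In control hips a fit of all 12 arrays called 11 higher and 33 lower, and the replicate block 5 and 14. Leaving out single arrays gave 5 to 118 higher and 18 to 36 lower probes in injured hips, 1 to 3 neighbours, 0 to 5 list genes higher and 2 to 3 lower, 3 to 358 higher and 13 to 54 lower in control hips, 0 to 242 for the interaction, and -1.69 to -1.44 and -2.32 to -1.82 for the Mapk9 probes. For 22 named called probes beside Mapk9, 301 of the values kept their call and 88 lost it. The cause of these changes was not tested. With 1 probe per gene fewer probes were tested, and called probes that were not the brightest of their gene had no value. Probes near background, among them 11 of the 23 falls, carry at most a bound and not a level.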
